A study of Mus musculus with 3 samples.

Results

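The type I interferon stimulated genes are genes whose transcription rises when interferon alpha or beta binds its receptor, IFNAR, on a cell. The receptor's kinases JAK1 and TYK2 pass the signal to transcription factors, among them STAT2 and IRF9, that act at the interferon-stimulated response element in promoters. The products block viral replication, sense foreign nucleic acids, feed the response forward through IRF7, or restrain it through USP18. They were chosen as a list of 33 gene symbols, and 32 of these were found among 30360 genes. Mx2 was not analysed here.

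Cells came from the left ventricle of C56Bl6 mice, in 3 droplet-based 3' single-cell RNA libraries, each a pool of 4 samples. Control mice were on the standard diet for 10 weeks, and no vector is named for them. HFpEF-scr mice had 6 weeks of the High-Fat + L-NAME diet and 4 weeks of AAV-scramble-sh, with a diet used as a model of heart failure with preserved ejection fraction (L-NAME inhibits nitric oxide synthases). HFpEF-FoxO1-sh mice had that diet for 6 weeks and AAV-FoxO1-sh, a viral vector with a hairpin against Foxo1, for 4 weeks. Cardiomyocytes were strained out and red cells lysed, so the values concern the other cells of the ventricle. The labels give neither the cell types that a vector entered nor whether the 4 pooled samples were 4 animals. Since each group is a single library, nothing could be tested against the spread of replicates. Each difference below is one between libraries, with intervals that cover counting error only and not the spread between animals. Diet, vector and library cannot be told apart between Control and HFpEF-scr, nor can hairpin and library between HFpEF-scr and HFpEF-FoxO1-sh.

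The libraries held 144561934 to 154385813 counts of unique molecular identifiers (UMIs), and 12757, 14567 and 16854 cells were kept. All values below are in the order Control, HFpEF-scr, HFpEF-FoxO1-sh. A kept cell had a median of 6889, 6520 and 6607 UMIs, of which 12.9%, 12.6% and 9.32% were mitochondrial (medians). Each pair of libraries shared 238 to 335 cell barcodes, at most 1.01% of a library. Foxo1, the gene the hairpin targets, was at 61.1, 56.2 and 59.7 CPM (UMIs of the gene in 1000000 UMIs of the group of cells) over all kept cells. In fibroblasts the library labelled HFpEF-FoxO1-sh had 64.1 CPM of it and HFpEF-scr 59.2 CPM (ratio 1.08, 95% interval 1.04 to 1.13). In endothelial cells it was at 66.9, 81.1 and 63.6 CPM. There the library labelled HFpEF-FoxO1-sh was below HFpEF-scr (ratio 0.784, 0.667 to 0.919), and HFpEF-scr was above Control (ratio 1.21, 1.04 to 1.42). In macrophages, endocardial and smooth muscle cells the ratios of HFpEF-FoxO1-sh over HFpEF-scr were 1.14, 0.907 and 1.17, with intervals that include 1. Over all kept cells and in fibroblasts the targeted gene therefore does not mark that library as its label would, and the library is called by its label throughout. Cells were grouped into classes by marker genes, so that each name means cells like that type. The interferon genes were left out of the clustering. Fibroblasts (8308, 9128 and 10443 cells) and macrophages (1124, 1575 and 2008 cells) were the largest classes described here, beside endothelial (362, 540 and 419), endocardial (584, 433 and 361) and smooth muscle cells (405, 368 and 376).

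Promoter sequence was available for 23 of the 32 genes in RefSeq windows of 300 bases on GRCm38.p6 (250 before the transcription start and 50 after). The core of the response element, here GAAA, any 2 bases and GAAA again on either strand, was present in 13 of these 23 genes (56.5%). Over all genes with such windows it was present in 1079 of 27025 (3.99%). The upstream 220 bases of Isg15 and Ifit1 are shown because both are classic targets of the response and their matches differ in arrangement. Capitals mark every match and lower case the other bases, 5' to 3' on the gene's strand.

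Isg15: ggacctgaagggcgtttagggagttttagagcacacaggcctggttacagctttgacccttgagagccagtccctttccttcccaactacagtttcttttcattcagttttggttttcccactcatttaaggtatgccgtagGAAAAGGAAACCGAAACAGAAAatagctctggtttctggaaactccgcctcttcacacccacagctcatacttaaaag
Ifit1: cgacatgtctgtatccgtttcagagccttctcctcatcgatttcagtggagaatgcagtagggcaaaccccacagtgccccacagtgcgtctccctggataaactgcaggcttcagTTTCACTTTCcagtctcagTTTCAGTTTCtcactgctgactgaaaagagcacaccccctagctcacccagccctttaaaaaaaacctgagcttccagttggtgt

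The Isg15 stretch is chr4:156200819-156201038 on the minus strand. It holds 3 overlapping matches that begin 78, 72 and 66 bases before the start and run together in a single block. The Ifit1 stretch is chr19:34640669-34640888 on the plus strand. Its 2 matches begin 104 and 85 bases before the start and lie on the opposite strand, so they read as TTTC repeats. The next pair is shown because Ifit3 and Ifit3b are near copies whose promoters can be set side by side.

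Ifit3: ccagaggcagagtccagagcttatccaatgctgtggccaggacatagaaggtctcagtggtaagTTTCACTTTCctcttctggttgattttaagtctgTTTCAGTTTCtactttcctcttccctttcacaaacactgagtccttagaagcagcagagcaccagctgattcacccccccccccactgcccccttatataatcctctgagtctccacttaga
Ifit3b: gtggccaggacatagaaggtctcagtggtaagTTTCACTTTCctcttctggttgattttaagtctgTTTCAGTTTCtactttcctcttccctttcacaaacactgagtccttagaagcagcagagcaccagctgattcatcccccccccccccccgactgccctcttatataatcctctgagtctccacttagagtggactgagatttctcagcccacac

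These are chr19:34583309-34583528 and chr19:34607737-34607956, both on the plus strand. Each holds 2 matches with the same spacing, beginning 156 and 122 bases before the start of Ifit3 and 188 and 154 bases before that of Ifit3b. Shifted by 32 bases, 188 of 218 compared upstream bases were identical (86.2%). Rsad2 and Cxcl10 follow because their levels differed between the libraries in fibroblasts.

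Rsad2: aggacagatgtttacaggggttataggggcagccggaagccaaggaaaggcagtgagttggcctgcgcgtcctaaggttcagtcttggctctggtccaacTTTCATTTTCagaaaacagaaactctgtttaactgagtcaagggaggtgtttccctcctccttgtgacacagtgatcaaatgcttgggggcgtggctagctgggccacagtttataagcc
Cxcl10: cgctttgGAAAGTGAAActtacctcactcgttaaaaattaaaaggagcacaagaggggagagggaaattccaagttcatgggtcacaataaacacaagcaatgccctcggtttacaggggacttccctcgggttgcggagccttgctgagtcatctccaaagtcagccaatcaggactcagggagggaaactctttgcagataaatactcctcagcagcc

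The Rsad2 stretch, chr12:26456453-26456672 on the minus strand, has a match 120 bases before the start. The Cxcl10 stretch, chr5:92348890-92349109 on the minus strand, has a match 213 bases before the start. Matches were also found for Oas1a, Oas3, Stat2, Ifih1, Ddx58, Bst2 and Trim30a. No match lay in the windows of Ifit2, Oasl1, Oasl2, Irf7, Irf9, Ifi44, Ifi35, Cmpk2, Xaf1 and Herc6, which says only that these letters are not in those windows. Several of the genes are neighbours on mm10. The 4 Ifit genes lie on chromosome 19 within 34550694 to 34650009 (99.3 kb). Oas1a, Oas2 and Oas3 lie within 177 kb on chromosome 5, Oasl1 and Oasl2 within 41.0 kb on the same chromosome, and Rsad2 and Cmpk2 within 37.1 kb on chromosome 12.

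The genes were not at 1 basal level in all cells. Means over the 3 libraries were compared in 15 classes with at least 50 cells in every library. Of the 32 genes, 10 were highest in endothelial cells, 8 in monocytes, 6 in macrophages, 5 in Schwann cells, 2 in lymphatic endothelial cells and 1 in dendritic cells. Smooth muscle was the lowest class for 15 of the 32. For 11 genes every library of the highest class lay above every library of the next class, and for the other 21 the neighbours overlapped. Such counts were not made over all genes, so they describe these genes and are not read as particular to them. Neutrophils stayed out of this order because Control held 44 of them. Mesothelial cells (109, 46 and 92 cells), cardiomyocytes and proliferating cells stayed out by the same limit. Mesothelial cells, cardiomyocytes and proliferating cells are not set against the order here, so the highest class is the highest of the 15 only. Any of them may lie above it for some genes, so neutrophils need not be the only exception. The neutrophil mean was above that of the highest class for 8 of the 32 genes (Isg15, Ifit3b, Oas3, Oasl1, Oasl2, Rtp4, Trim30a and Herc6). Some of these means rest on few UMIs, with 2, 6 and 11 of Ifit3b, 5, 6 and 17 of Oasl1 and 9, 18 and 8 of Herc6. Neutrophil Ifit3b was at 9.55, 10.5 and 39.5 CPM, and Schwann cells, the highest class, were at 14.9 to 17.0 CPM.

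Rsad2 encodes viperin, which makes a chain-terminating nucleotide. In endothelial cells it was at 204, 283 and 237 CPM, and its mean there of 241 CPM was 5.25 times that of the next of the 15 classes, erythroid cells. Neutrophils, left out of the order, were at 81.1, 54.3 and 240 CPM of it, with a mean of 125 CPM. In the library labelled HFpEF-FoxO1-sh, the neutrophil interval of Rsad2 (186 to 305 CPM) includes the endothelial 237 CPM. Cmpk2, its neighbour on chromosome 12 and a mitochondrial nucleotide kinase, was also highest in endothelial cells, at 51.5, 53.6 and 51.1 CPM. Its level there was 2.14 times that of monocytes. Bst2, or tetherin, which holds budding virions at the cell surface, averaged 589 CPM in endothelial and 516 CPM in lymphatic endothelial cells, and 73.9 CPM in smooth muscle. For these 3 genes each endothelial library lay above all libraries of the other 14 classes.

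Among the 15 classes, monocytes held the highest mean of Oas3 (36.0 CPM, 5.30 times the next), an enzyme that makes the second messenger for RNase L. The same was true of Irf7 (94.6 CPM), the transcription factor that amplifies interferon production, and of Zbp1 (110 CPM), a sensor of Z-form nucleic acid. Trim30a, a ubiquitin ligase family member, was highest there too (142 CPM). Neutrophils had a higher mean of Oas3 (66.8 CPM) and of Trim30a (179 CPM), and a lower one of Irf7 (64.4 CPM) and Zbp1 (19.1 CPM). The lowest of the 3 monocyte libraries lay above all libraries of the next of the 15 classes for Oas3, Irf7, Zbp1 and Trim30a. Mx1, a dynamin-like GTPase, averaged 25.5 CPM in dendritic cells and was at 0 in pericytes. Ifi44 was at 61.9 CPM in lymphatic endothelial and 57.7 CPM in endothelial cells, which overlapped. Ifi27l2a averaged 2792 CPM in macrophages, and macrophage and monocyte libraries overlapped. Ifit3 was highest in Schwann cells, the glia of cardiac nerves, at 63.4 CPM against 31.1 CPM in endothelial cells.

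**Figure D1:**
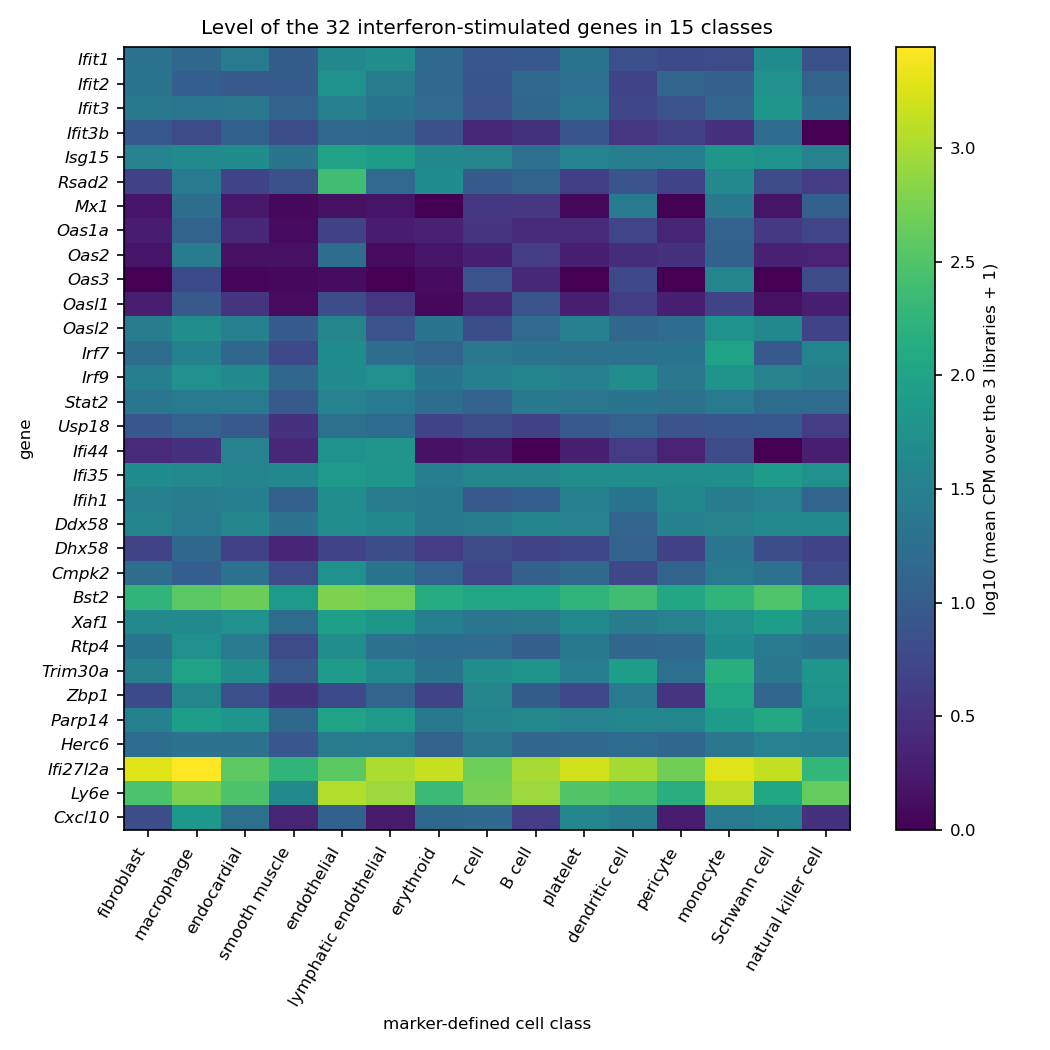
Each row is a gene and each column a marker-defined class, and colour gives log10 of the mean CPM over the 3 libraries plus 1. Smooth muscle is the darkest column for many genes, while endothelial cells and monocytes are bright for Rsad2 and Irf7.

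The interferons themselves were close to the limit of detection. All 20 type I and type III ligand genes together had 52, 62 and 58 UMIs over the kept cells. Ifnb1, which encodes interferon beta, had 25, 31 and 42 UMIs in 7, 10 and 8 cells. Macrophages held 18, 30 and 42 of these UMIs and fibroblasts 0, so its level in macrophages was 2.23, 2.87 and 3.13 CPM. Ifnz, another type I ligand gene, had 25, 29 and 14 UMIs, of which fibroblasts held 18, 26 and 9. In fibroblasts it was counted as lower in the library labelled HFpEF-FoxO1-sh than in HFpEF-scr, on these few UMIs. Ifng, the type II interferon, had 492, 796 and 724 UMIs, of which 242, 399 and 392 were in natural killer cells. The receptor subunit genes were detected in every class described here. In fibroblasts Ifnar1 was at 37.5, 38.5 and 37.6 CPM and Ifnar2 at 96.9, 97.2 and 108 CPM. In macrophages Ifnar1 was at 85.1, 95.4 and 83.9 CPM and Ifnar2 at 123, 115 and 135 CPM. Neither receptor gene was counted as higher or lower in fibroblasts or macrophages.

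In the comparisons, genes with 20 or more UMIs in the sum of the compared libraries count as measured. A gene is called higher or lower where its CPM differs by 1.5 times or more and the exact conditional interval of the ratio excludes 1. Log2 ratios use CPM plus a pseudocount of 1, which understates the change of low genes. Both comparisons use HFpEF-scr, so they are not independent, and each is given by its own values. Shares of all genes are those of the main settings, and none is given beside a number under another setting.

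In fibroblasts, the matrix-producing cells, the interferon genes were higher in HFpEF-scr than in Control. Of 31 measured genes, 8 were higher and 0 lower. Over all measured genes in fibroblasts, 1.72% were higher and 1.93% lower by that rule. The median log2 ratio was 0.27 over the 31 genes and -0.01 over all genes, and 28 of the 31 had a ratio above 1. The interval lay above 1 for 25 genes and below 1 for 1 gene, against 16.4% and 20.3% of all genes. With a mitochondrial limit of 10% in place of 20%, 2 genes were higher and the median was 0.28. With a fold of 2, 3 genes were higher.

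Among the effectors that bind viral RNA, Ifit1 was at 14.5, 22.7 and 21 CPM (1.56 times as high in HFpEF-scr as in Control, 1.43 to 1.70). Its near relatives were closer, with Ifit3 at 18.7, 25.3 and 26.4 CPM (ratio 1.35, 1.25 to 1.46) and Ifit3b at 6.25, 9.09 and 8.49 CPM (ratio 1.45, 1.27 to 1.66). Ifit2 was at 19.3, 19.0 and 22.3 CPM, with an interval of 0.907 to 1.07. Ifit1 therefore passed the rule while Ifit2, in the same gene cluster, did not. UMIs of Ifit3 are uncertain, since 12.9% of the 60-base stretches in its last 500 bases are also found in Ifit3b.

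Rsad2 was at 2.34, 4.32 and 4.91 CPM (ratio 1.85, 1.5 to 2.29). Mx1 was at 0.202, 0.871 and 0.636 CPM, from 12, 54 and 48 UMIs (ratio 4.32, 2.28 to 8.87). Both were low in fibroblasts in absolute terms, and the wide interval of Mx1 shows how few molecules carry it. Of the oligoadenylate synthetases, which activate RNase L, Oas1a was at 0.420, 1.08 and 1.03 CPM (ratio 2.57, 1.60 to 4.25) and Oas2 at 0.387, 0.726 and 0.557 CPM (ratio 1.88, 1.11 to 3.25). Oas1a is uncertain because 51.2% of its 3' stretches are shared with Oas1g. Oas3 had 1, 0 and 1 UMIs in fibroblasts and was not measured.

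Usp18, which removes ISG15 from proteins and dampens receptor signalling, was at 5.70, 8.59 and 8.94 CPM (ratio 1.51, 1.31 to 1.73). Isg15 itself, the ubiquitin-like modifier, was at 28.9, 32.1 and 37.4 CPM (ratio 1.11, 1.04 to 1.19). The modifier therefore stayed below the rule while the enzyme that removes it passed. Ifi44 was at 1.14, 1.82 and 1.72 CPM (ratio 1.59, 1.17 to 2.19), but at a ratio of 0.911 with each cell thinned to 1000 UMIs. Cxcl10, a chemokine that draws T cells through CXCR3, was at 3.11, 6.32 and 7.07 CPM (ratio 2.03, 1.70 to 2.43). It was found in 0.734%, 1.06% and 1.22% of fibroblasts, and 1 cell held 22.2%, 25.3% and 13.9% of its UMIs. In smooth muscle it was found in 0.741%, 1.09% and 0% of cells (3, 4 and 0 cells) at a median depth of 9999, 8927.5 and 9614.5 UMIs, against 6819, 6504 and 6866 UMIs in fibroblasts. The share of fibroblasts was no higher than that of smooth muscle cells in Control and HFpEF-scr and was higher in the third library, so no difference between libraries is read from the share of cells.

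The factors and sensors of the pathway were higher by less. Irf7 was at 14.2, 16.8 and 18.5 CPM (ratio 1.19), Irf9 at 25.8, 31.1 and 32.8 CPM (1.21), and Stat2 at 19.4, 22.3 and 22.4 CPM (1.15). Ddx58, which encodes the RNA sensor RIG-I, was at 32.4, 36.6 and 34.8 CPM (1.13), and Ifih1, which encodes MDA5, at 30.3, 31.8 and 30.4 CPM (1.05). None of the factors and sensors passed the rule. The abundant genes Ifi27l2a (1434, 1944 and 2241 CPM), Ly6e (257, 311 and 316 CPM) and Bst2 (158, 181 and 193 CPM) had ratios of 1.36, 1.21 and 1.14. Ifi35 was the gene whose interval lay below 1, at 46.2, 43.0 and 49.8 CPM (ratio 0.931, 0.882 to 0.982).

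Fibroblasts of the library labelled HFpEF-FoxO1-sh had no gene past the rule against HFpEF-scr. Of 31 measured genes, 0 were higher and 0 lower, against 1.69% and 1.81% of all genes, and the median log2 ratio was 0.07 against 0.04 over all genes. The interval lay above 1 for 11 genes and below 1 for 1, against 26.1% and 12.3% of all genes. Isg15 had a ratio of 1.17 (1.10 to 1.24) and Ifit1 a ratio of 0.925 (0.860 to 0.994).

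**Figure D2:**
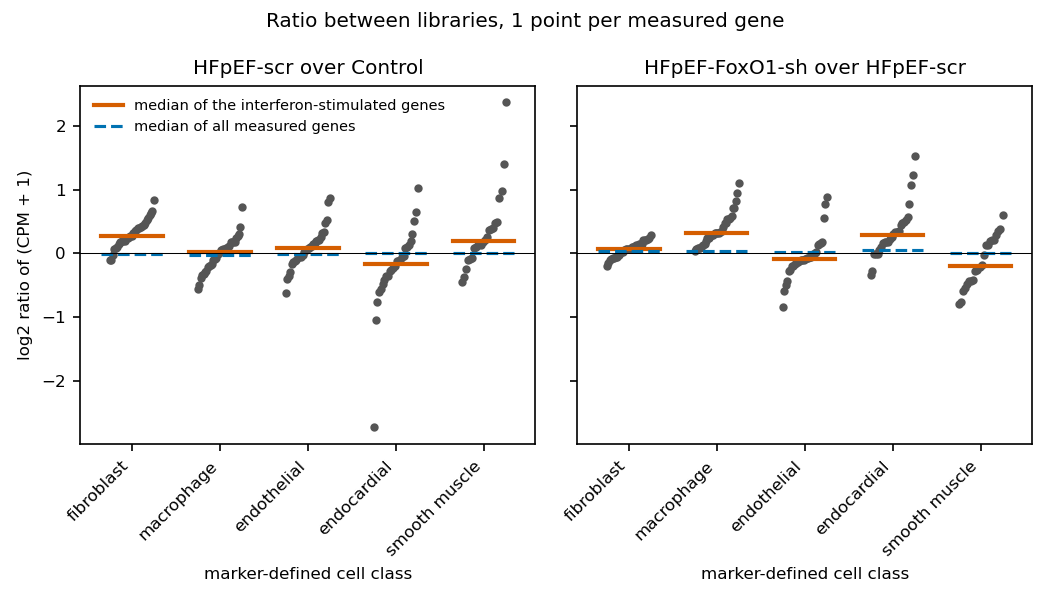
Each point is a measured gene, with log2 of the ratio of CPM plus 1 on the y axis, for HFpEF-scr over Control (left) and HFpEF-FoxO1-sh, by its label, over HFpEF-scr (right). Solid lines are medians of the interferon-stimulated genes and dashed lines medians of all measured genes. The fibroblast median of 0.27 on the left and the macrophage median of 0.32 on the right lie above the dashed lines.

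Fibroblasts formed 9 clusters, and the median log2 ratio of HFpEF-scr over Control was above 0 in 9 of the 9, from 0.0040 to 0.38. It was highest in the cluster led by Cnmd and Inmt (0.38, 9 of 25 higher, against 1.5% of all genes) and in that led by Cilp and Dio2 (0.35, 7 of 27 higher, against 1.83%). The cluster led by Ret and Ccl11 had 0 higher. From HFpEF-scr to the library labelled HFpEF-FoxO1-sh, the medians ran from -0.12 to 0.23 and 7 of the 9 were above 0. In that comparison the Cilp cluster had 5 of 30 genes lower, against 1.12% of all genes there, and the cluster led by Stmn4 and Duox1 had 5 of 30 higher, against 1.79%. The difference between these clusters was not tested.

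Markers of other classes in fibroblasts were low. Over the 15, 14 and 15 macrophage markers used for a share, the sum there was 0.159%, 0.157% and 0.184% of that in macrophages. Of the 17 listed macrophage markers 0 were undetected, with a summed level of 63.2 to 70.6 CPM. Endothelial markers summed to 119, 162 and 169 CPM, with 0 of 16 undetected, and so were higher in both libraries on the High-Fat + L-NAME diet. Over the 14 used for a share, the sum was 0.756%, 0.858% and 0.978% of that in endothelial cells. Rsad2, counted as higher in fibroblasts above, was at 204 to 283 CPM in endothelial cells. The part of RNA from other classes in the result, Rsad2 included, was not tested. The median mitochondrial share of fibroblasts was 12.6%, 12.2% and 8.69%.

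The macrophages had another pattern. Between HFpEF-scr and Control, 1 of 32 measured genes was higher and 0 lower, against 1.96% and 2.11% of all genes, and the median log2 ratio was 0.03 against -0.03. With a mitochondrial limit of 10% the median was -0.38, with 0 higher and 5 lower. The gene that passed was Oasl1, a translational repressor of Irf7, at 4.84, 8.62 and 10.6 CPM (ratio 1.78, 1.21 to 2.67). The intervals of 4 genes lay below 1, such as Cxcl10 at 78.4, 55.2 and 70.8 CPM (ratio 0.704, 0.628 to 0.789) and Parp14 at 92.1, 70.2 and 86.5 CPM (ratio 0.763, 0.688 to 0.846). Isg15 was at 42.6, 33.6 and 50.9 CPM (ratio 0.790, 0.679 to 0.920).

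Macrophage levels were above HFpEF-scr in the library labelled HFpEF-FoxO1-sh for 32 of 32 genes, against 59.4% of all genes. Of the 32, 7 were higher and 0 lower by the rule, against 1.81% and 1.95% of all genes. The median log2 ratio was 0.32, and 0.04 over all genes. The interval lay above 1 for 22 genes and below 1 for 0, against 13.1% and 7.15% of all genes. All 4 Ifit genes were among the 7. With a mitochondrial limit of 10% the number was 12 and the median 0.50, with a fold of 2 it was 2, and with each cell thinned to 1000 UMIs 3.

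Ifit1 in macrophages was at 11.4, 9.10 and 18.5 CPM (2.03 times as high as in HFpEF-scr, 1.59 to 2.60) and Ifit2 at 7.44, 8.05 and 13.8 CPM (1.71, 1.32 to 2.24). Ifit3 was at 19.2, 16.4 and 29.7 CPM (1.81, 1.51 to 2.18) and Ifit3b at 4.84, 2.97 and 7.52 CPM (2.53, 1.68 to 3.92). The comparison with HFpEF-scr picked out these genes, and Control too lay below the library labelled HFpEF-FoxO1-sh for each. Choosing genes that are high in that library favours this place of Control, so it is no separate evidence. Isg15 was higher at a ratio of 1.51 (1.33 to 1.72). Rsad2 was at 23.1, 18.8 and 31.3 CPM (1.67, 1.40 to 1.98) and Usp18 at 8.69, 9.97 and 15.1 CPM (1.52, 1.19 to 1.94). With thinning to 1000 UMIs the Usp18 ratio was 0.820. Genes near the threshold were Dhx58, the helicase LGP2, at 13.9, 10.7 and 16.1 CPM, and Oas2 at 25.4, 21.9 and 32.5 CPM (ratio 1.48, 1.26 to 1.74). Irf7 was at 26.8, 28.1 and 39.6 CPM (1.41, 1.22 to 1.63). The macrophage-rich genes Ifi27l2a (2261, 2728 and 3389 CPM) and Zbp1 (34.1, 34.2 and 43.0 CPM) stood 1.24 and 1.26 times as high as in HFpEF-scr.

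**Figure D3:**
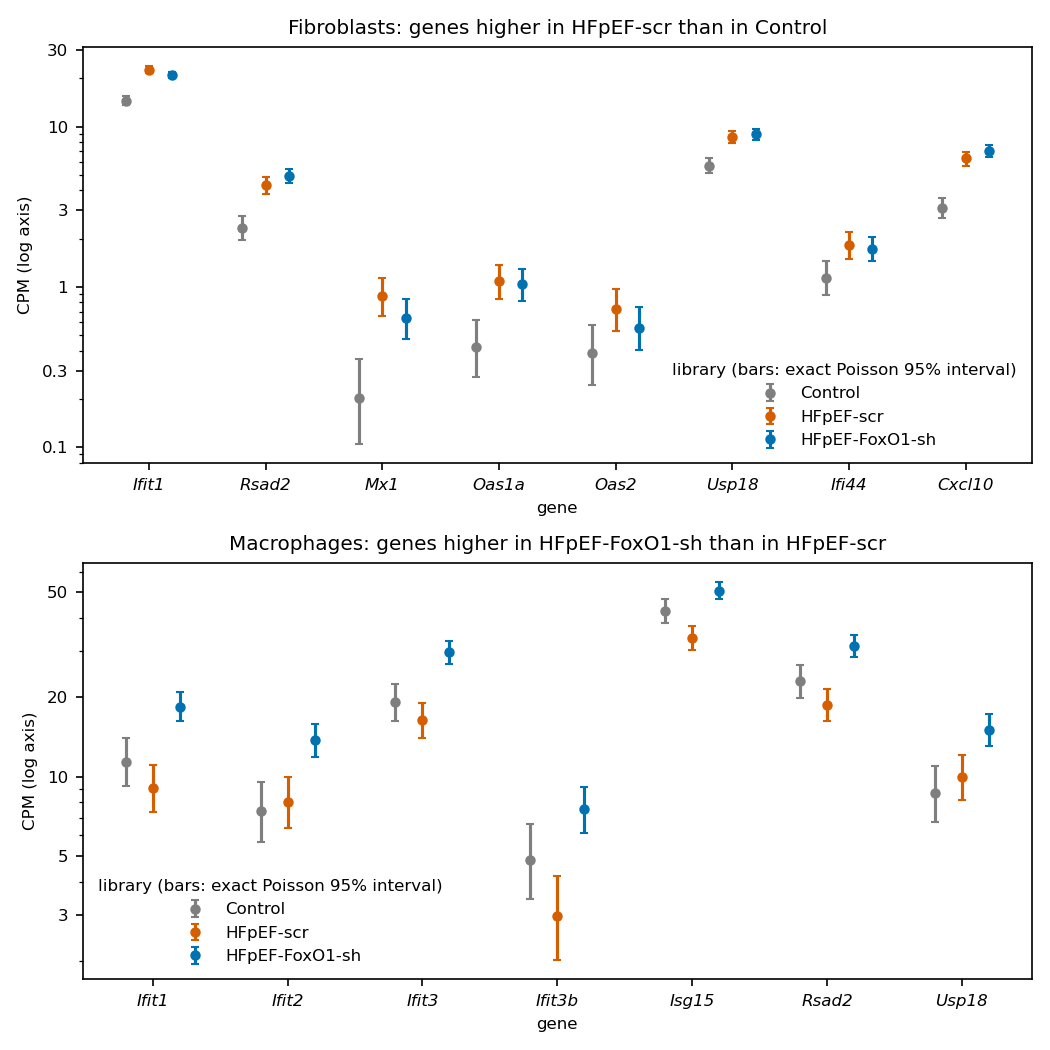
Points are CPM in each library on a log axis with exact Poisson 95% intervals, for the 8 genes higher in HFpEF-scr than in Control in fibroblasts (top) and the 7 genes higher in the library labelled HFpEF-FoxO1-sh than in HFpEF-scr in macrophages (bottom). The comparison that chose the genes fixes the order of its 2 libraries in each panel. The remaining library sits above Control in the top panel and below the library labelled HFpEF-FoxO1-sh in the bottom panel, which the choice of genes also favours.

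The same comparison held in both macrophage clusters. In the cluster led by Folr2 and Fcna, genes known from resident macrophages, the median was 0.24 with 6 of 31 genes higher and 0 lower, against 2.93% and 1.29% of all genes. In the cluster led by Fcgr4 and Mmp13, with H2-Eb1 among its leading genes, it was 0.41 with 12 of 32 higher and 0 lower, against 2.11% and 4.12%. Between HFpEF-scr and Control the second of these had 7 genes lower and 1 higher, against 2.14% and 2.68%, and the first had 1 higher and 0 lower. The median mitochondrial share of macrophages was 14.6%, 14.2% and 9.91%, so it was lowest in the library with the highest levels of the Ifit genes. Its part was not tested beyond scaling: with mitochondrial and haemoglobin UMIs taken out of the total, the median was 0.26. Markers of monocytes in macrophages summed to 375, 597 and 423 CPM, with 0 of 12 undetected, and their part was not tested.

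Endothelial cells were the highest of the 15 classes for 10 of the 32 genes, and few genes differed there. Between HFpEF-scr and Control, 2 of 30 measured genes were higher and 1 lower, against 1.86% and 3.93% of all genes, with a median log2 ratio of 0.08. Oas2 was at 11.9, 21.5 and 14.9 CPM (ratio 1.81, 1.29 to 2.58) and Zbp1 at 3.71, 7.58 and 3.80 CPM (ratio 2.04, 1.11 to 3.96). Cxcl10 was lower, at 11.6, 7.23 and 13 CPM (ratio 0.621, 0.399 to 0.965), but 1 cell held 51.1%, 12.2% and 77.1% of its UMIs. Without cells that hold many of the genes, described below, its ratio was 3.01. Rsad2 (1.39, 1.28 to 1.51) and Ifi44, at 49.0, 71.3 and 52.7 CPM (1.45, 1.22 to 1.73), stayed below the rule.

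Between the library labelled HFpEF-FoxO1-sh and HFpEF-scr, 2 of 30 endothelial genes were higher and 1 lower, against 4.12% and 2.29% of all genes, with a median of -0.09. Ifit3b was at 11.6, 10.8 and 20.7 CPM (ratio 1.92, 1.35 to 2.73) and was higher with Cxcl10, and Zbp1 was lower (ratio 0.502, 0.253 to 0.935). Both turned with the mitochondrial limit, to an Ifit3b ratio of 0.988 at 50% and a Zbp1 ratio of 1.22 at 10%, and the Cxcl10 ratio was 0.506 without the cells that hold many of the genes. Ifi27l2a was at 394, 298 and 437 CPM. Macrophage markers in endothelial cells summed to 2.17%, 0.150% and 0.687% of their macrophage level. Both these markers and Ifi27l2a were lowest in HFpEF-scr, and the part of the markers in these values was not tested.

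In endocardial cells, the inner lining of the ventricle, few of the genes passed the rule. Between HFpEF-scr and Control, 1 of 26 measured genes was higher and 4 lower, against 2.53% and 2.52% of all genes, with a median of -0.16. With a mitochondrial limit of 50% in place of 20%, 3 were higher and 1 lower, with a median of -0.06. Ifit3 was at 23.7, 13.6 and 29.7 CPM (ratio 0.574, 0.385 to 0.841), Ifi35 at 41.9, 27.3 and 34.8 CPM (0.651, 0.491 to 0.855) and Zbp1 at 6.28, 2.51 and 9.12 CPM (0.400, 0.147 to 0.940). Cxcl10 was at 46.1, 6.1 and 0.676 CPM (0.132, 0.0756 to 0.217), and 1 Control cell held 74.7% of its UMIs there. Ifi27l2a was higher, at 203, 413 and 565 CPM (2.04, 1.86 to 2.23).

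Between the library labelled HFpEF-FoxO1-sh and HFpEF-scr, 5 of 26 endocardial genes were higher and 0 lower, against 3.31% and 1.51% of all genes, with a median of 0.28. These were Ifit3 (ratio 2.18, 1.48 to 3.28), Isg15 (49.3, 33.4 and 58.1 CPM, ratio 1.74, 1.35 to 2.27), Dhx58 (2.98, 1.15 to 9.13), Rtp4 (1.51, 1.08 to 2.13) and Zbp1 (3.63, 1.54 to 9.88). The median mitochondrial share of these cells was 13.7%, 13.4% and 9.01%, and its part was not tested.

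Smooth muscle cells, the lowest class for 15 of the 32 genes, had 22 genes measured. Between HFpEF-scr and Control, 4 were higher and 0 lower, against 2.47% and 2.54% of all genes, with a median of 0.19. Ifit1 was at 2.18, 15.5 and 10.4 CPM (ratio 7.09, 3.47 to 16.3), and 1 cell held 37.0% of its UMIs in HFpEF-scr. Ifit3 was at 6.07, 12.9 and 15.1 CPM (2.13, 1.28 to 3.62), Ifit3b at 2.18, 7.46 and 7.28 CPM (3.41, 1.55 to 8.28) and Rsad2 at 4.12, 8.32 and 5.88 CPM (2.02, 1.07 to 3.91). In the other comparison 0 were higher and 2 lower, against 2.04% and 3.1% of all genes, with a median of -0.19. The lower genes were Oasl2 (8.25, 12.0 and 6.72 CPM, ratio 0.558, 0.323 to 0.943) and Ddx58 (18.0, 25.5 and 14.3 CPM, ratio 0.559, 0.389 to 0.798). Over alternative settings the medians ran from -0.19 to 0.39 for HFpEF-scr over Control and from -0.47 to 0.44 in the other comparison. Neither median kept its sign.

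The medians of the smooth muscle clusters had opposite signs, a difference that was not tested. In the cluster led by Sost and Igfbp2 the median of HFpEF-scr over Control was 0.65 with 9 of 22 higher, against 3.21% of all genes, and in that led by Gm13861 and Sorbs2 it was -0.35 with 3 of 16 lower, against 3.24%. In the next comparison they were -0.52 and 0.31.

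A level summed over a class does not show whether all its cells or a few carry it. Each cell was therefore thinned to 2000 UMIs, and cells with UMIs of at least 6 of the genes were counted, leaving out shallower cells (51, 76 and 105 fibroblasts and 1, 6 and 21 macrophages). Of fibroblasts, 2.66%, 3.95% and 4.25% were such cells (220, 358 and 439 cells). The share in HFpEF-scr was 1.48 times that of Control (1.25 to 1.76), and the library labelled HFpEF-FoxO1-sh had 1.07 times the share of HFpEF-scr (0.932 to 1.24). Without thinning the shares were 27.1%, 30.8% and 36.3%. The cut is a count and not a cell type: 97, 139 and 183 of these fibroblasts lay at 6 genes and 247, 362 and 469 fibroblasts at 5.

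Macrophages had 9.88%, 9.11% and 13.3% of such cells (unthinned 48.8%, 45.2% and 54.7%). The ratios were 0.922 (0.715 to 1.19) and 1.46 (1.18 to 1.80). In endothelial cells the shares were 16.7%, 22.5% and 17.8%, with intervals of both ratios (0.977 to 1.86 and 0.583 to 1.07) that include 1. Endocardial cells had 4.10%, 3.19% and 6.73%, and smooth muscle cells 0.495%, 0.272% and 1.62% (2, 1 and 6 cells). These few smooth muscle cells had median Scrublet doublet scores of 0.241, 0.36 and 0.183, against 0.102, 0.101 and 0.0982 in the others. Whether they are doublets was not tested. The classes and comparisons in which the share differed beyond counting error were thus fibroblasts between HFpEF-scr and Control, and macrophages and endocardial cells (ratio 2.11, 1.02 to 4.53) between the library labelled HFpEF-FoxO1-sh and HFpEF-scr, among these 5 classes.

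**Figure D4:**
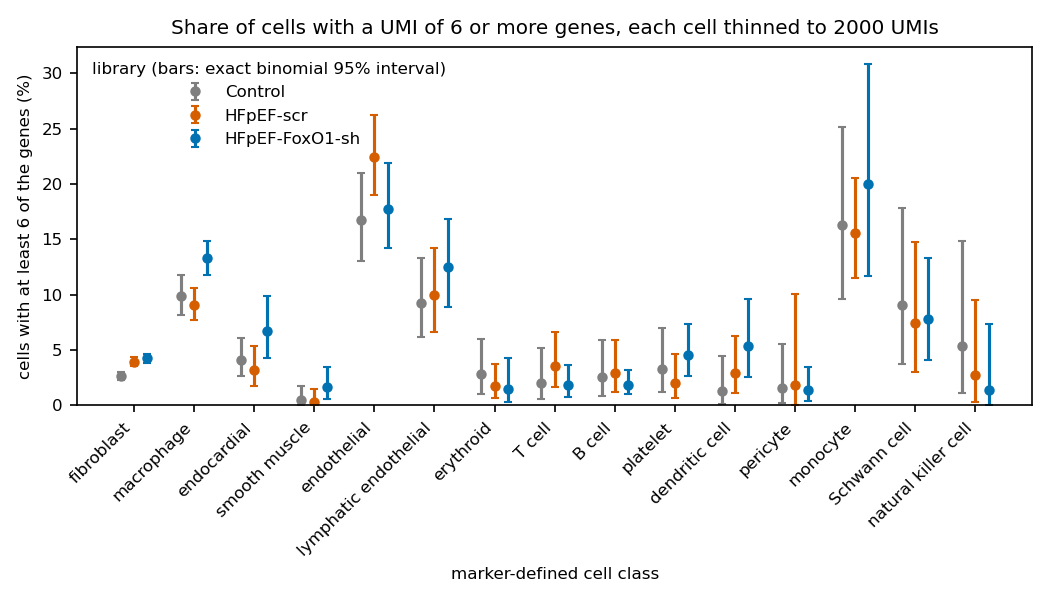
The y axis is the percentage of cells with a UMI of at least 6 of the genes after thinning to 2000 UMIs, by class and library, with exact binomial 95% intervals. Fibroblasts sit at 2.66% to 4.25%, macrophages at 9.11% to 13.3% and endothelial cells at 16.7% to 22.5%.

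These cells were picked by their UMIs of the genes, so their part of these UMIs is given as a description. In fibroblasts they carried 15.2%, 23.8% and 23.6% of the UMIs of the genes other than the broadly expressed Bst2, Ly6e and Ifi27l2a, and in macrophages 31.8%, 30.6% and 41.0%. Their median depth was close to that of other fibroblasts, at 6785 against 6836, 6370.5 against 6525, and 7055 against 6882 UMIs. Within the 9 fibroblast clusters the share was higher in HFpEF-scr than in Control in 8. It ran from 1.65% to 3.63% in Control and from 2.16% to 4.95% in HFpEF-scr. With these cells left out, which lowers the levels by construction, the fibroblast median of HFpEF-scr over Control was 0.16 and 3 genes were higher. The macrophage median of the other comparison was 0.20 without them, with 3 genes higher, and Ifit2 had a ratio of 0.750.

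In fibroblasts, macrophages and endothelial cells, cells with several of the genes held more of the rest. The genes other than Bst2, Ly6e and Ifi27l2a were divided, alternating in list order, into sets of 15 and 14, and read in cells thinned to 2000 UMIs. Fibroblasts with at least 3 genes of the first set had 1.82, 2.54 and 2.44 UMIs per cell of the second set, and fibroblasts with 0 of the first set had 0.360, 0.367 and 0.408. The fold was 5.06, 6.91 and 5.97. In macrophages the values were 1.98, 1.95 and 2.71 against 0.440, 0.432 and 0.526, a fold of 4.51, 4.50 and 5.15. In endothelial cells the fold was 2.55, 3.11 and 3.23. Ifit3 and its near copy Ifit3b stand in different sets, and without Ifit3b the folds were 4.83, 6.41 and 5.42 in fibroblasts and 4.42, 4.41 and 4.98 in macrophages. Of the pairs of a class and a library with at least 20 cells in both bins, 13 of 13 had more UMIs of the second set in cells with 3 or more genes of the first than with 0. Cells with 1 gene of the first set had more than cells with 0 in 36 of 43 such pairs, and fewer in the others, such as pericytes of Control (0.171 against 0.482). Thinning puts all cells at 1 depth, so a cell's total does not enter these folds.

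Other genes of the pathway were read from lists of receptors, sensors and further targets, by the same rule and against the same shares of all genes. Of 16 measured receptor and signalling genes in fibroblasts, 0 were higher and 1 lower in HFpEF-scr than in Control. This was Socs3, a feedback inhibitor of cytokine receptors, at 85.1, 56.2 and 124 CPM (ratio 0.660, 0.632 to 0.689). It was the 1 gene of that list higher in the library labelled HFpEF-FoxO1-sh (2.20, 2.12 to 2.29). In macrophages 0 of 16 passed in either comparison. Of the genes that sense nucleic acids, such as Cgas, Sting1 and Mavs, 0 of 23 in fibroblasts and 0 of 25 in macrophages passed between HFpEF-scr and Control, and 0 of 24 and 0 of 25 in the other comparison.

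A longer list of further interferon-stimulated genes had 70 measured in fibroblasts, of which 2 were higher and 1 lower in HFpEF-scr than in Control, against 1.72% and 1.93% of all genes, with a median of 0.04. The higher were the chemokines Ccl7 (ratio 2.74, 2.65 to 2.83) and Cxcl9 (3.29, 2.14 to 5.21), and Ccl5 was lower (0.356, 0.298 to 0.424). In macrophages, 3 of 72 were higher and 3 lower in the library labelled HFpEF-FoxO1-sh than in HFpEF-scr, against 1.81% and 1.95% of all genes, with a median of 0.18. Cxcl9, another CXCR3 ligand, was among the lower, at 44.5, 18.2 and 1.19 CPM (ratio 0.0654, 0.0367 to 0.109), and so went the other way from the Ifit genes. Ccl5 (0.161, 0.112 to 0.225) and Ccl12 (0.631, 0.605 to 0.658) were the others.

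The GTPases best known as targets of interferon gamma differed by class. In macrophages 7 of 15 were lower and 1 higher in HFpEF-scr than in Control, against 2.11% and 1.96% of all genes, with a median of -0.56, such as Gbp2 at 23.5 and 12.8 CPM (ratio 0.548, 0.436 to 0.687) and Iigp1 at 37.3 and 21.1 CPM (0.565, 0.472 to 0.674). In endocardial cells 9 of 15 were lower and 0 higher, against 2.52% and 2.53%, with a median of -0.62. In fibroblasts 0 of 15 passed, with a median of 0.17. In the other comparison 1 of 16 was higher in macrophages (median 0.27, against 1.81% of all genes), and 3 of 14 in endocardial cells (median 0.38, against 3.31%), and none of these were lower.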

How the data were processed

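The values are UMI counts per gene and cell barcode, which the authors made with Cell Ranger 6.1.2 on mm10, per the submitters' processing notes. The lists of members and of pathway genes were chosen with earlier results of these data known. Barcodes below 500 UMIs or 300 genes, or above 20% mitochondrial UMIs, were left out. Scrublet (expected rate 12%) marked 1.41%, 2.29% and 3.09% of the rest as doublets, which were removed; unmarked ones may remain. Cells were clustered with scanpy 1.11.5 and leidenalg 0.10.2 on 2000 variable genes without interferon genes (30 components, 15 neighbours, resolution 1.0), with no batch correction. This gave 39 clusters, and 37 were named by the class that led in markers within their top 50 genes, with 3 or more detected. The 9 fibroblast clusters were named in a second pass against named cells of other classes, added after the clusters were seen. The 2 unnamed clusters (142, 169 and 132 cells) stayed out.

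UMIs were summed per class and library. Levels carry exact Poisson, shares exact Clopper-Pearson and ratios exact conditional binomial 95% intervals (scipy 1.17.1, numpy 2.4.6, pandas 2.3.3, Python 3.11.15). UMIs of a cell come together, so these intervals are too narrow for the sampling of cells. The calling rule was run on simulated counts with known folds, drawn for each gene from a Poisson distribution. This is what the intervals assume, so the run cannot show how the rule fares where UMIs of a cell come together. Any member may be named. From each pathway list, up to 4 genes per class and comparison with the largest absolute log2 ratio and at least 50 UMIs may be named with values. Genes named outside that rule are Foxo1 and the interferon and receptor genes. The response element core was searched in RefSeq windows on GRCm38.p6, and gene positions are from GENCODE on GRCm38. Alternatives covered cell filters, clustering, scaling, minimum, pseudocount, fold and thinning.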

Additional observations from a re-analysis of the deposited data

Results flagged for a closer look

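Among the 5 classes described above, 3 genes counted as higher or lower went opposite ways in different classes under the same comparison. Over all 15 compared classes, 9 genes did so: 3 between HFpEF-scr and Control and 8 in the other comparison, some of them in both. How many of all genes did so was not counted, so these numbers are not read as particular to the interferon genes. In B cells of the library labelled HFpEF-FoxO1-sh, 7 of 22 measured genes were lower than in HFpEF-scr, as were 2250 of 9348 of all genes. The difference between the classes was not tested in any of these cases, since each group is 1 library.

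Cxcl10 between HFpEF-scr and Control had a CPM ratio of 2.033 in fibroblasts, 0.6215 in endothelial cells and 0.1323 in endocardial cells. A single cell held 25.3% of its UMIs in HFpEF-scr fibroblasts, 51.1% in Control endothelial cells and 74.7% in Control endocardial cells.

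Ifit3 between HFpEF-scr and Control had a ratio of 0.5741 in endocardial cells and 2.128 in smooth muscle cells. Part of its UMIs is uncertain because of the near copy Ifit3b.

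Zbp1 had a ratio of 2.042 in endothelial cells and 0.3995 in endocardial cells between HFpEF-scr and Control. In the comparison of the library labelled HFpEF-FoxO1-sh with HFpEF-scr it had ratios of 0.5015 in endothelial and 3.633 in endocardial cells. Its levels were at most 9.12 CPM in these classes.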

How the results depend on the processing

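Of 149 medians of log2 ratios recomputed under alternative settings, 147 stayed within the range set by the counting intervals of the main value, and so did 46 of 54 ratios of shares. That range does not fix the sign of a median. For HFpEF-scr over Control the medians ran from -0.38 to 0.09 in macrophages, -0.18 to 0.03 in endocardial cells and -0.19 to 0.39 in smooth muscle. For HFpEF-FoxO1-sh over HFpEF-scr they ran from -0.29 to 0.02 in endothelial cells and -0.47 to 0.44 in smooth muscle. Of 298 numbers of genes past the rule, which are small, 68 changed by more than 1.5 times, and of 2965 single ratios 8 that had passed the rule turned direction. The cause was not tested in any case. No share of all genes stands beside the numbers under alternative settings, so those numbers are not read against all genes. Below, the first comparison is HFpEF-scr over Control and the second HFpEF-FoxO1-sh over HFpEF-scr.

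With a mitochondrial limit of 10%, the first comparison had 2 higher genes in fibroblasts, a median of -0.38 with 0 higher and 5 lower in macrophages, and 1 lower in endocardial cells. The second had 12 higher in macrophages, 0 higher and 2 lower in endothelial cells and 9 lower in smooth muscle, with a Zbp1 ratio of 1.22 in endothelial cells. The share of macrophages with many of the genes had ratios of 0.608 and 1.84. With that limit Control held too few endothelial cells for a value in the first comparison. With a limit of 50%, the first comparison had 0 lower in endothelial and 3 higher and 1 lower in endocardial cells. The second had 1 higher in endothelial cells, where the Ifit3b ratio was 0.988, and 2 lower in endocardial cells.

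With interferon genes allowed in the clustering, fibroblasts had 4 higher in the first comparison and 1 lower in the second. Macrophages had 1 lower in the first comparison in that setting, with at least 1000 UMIs per barcode, with cells classed singly, with doublets kept, with each cell thinned to 1000 UMIs, without the cells with many of the genes, and with the fold alone. With cells classed singly, the first comparison had 7 higher in smooth muscle, and the second 6 lower there and 0 lower in endothelial cells (Zbp1 ratio 1.00). With doublets kept, the first had 1 higher and 0 lower in endothelial and 2 higher and 2 lower in endocardial cells, and the second 4 lower in smooth muscle.

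With no minimum of UMIs, 1 gene was lower in smooth muscle in the first and 1 in endocardial cells in the second comparison. With a minimum of 100, the first had 5 higher in fibroblasts, 1 higher and 0 lower in endothelial cells and 0 higher in smooth muscle. The second had 1 higher and 0 lower in endothelial cells, 3 higher in endocardial cells and 1 lower in smooth muscle. With a fold of 2, the first had 3 higher in fibroblasts, 0 in macrophages, 1 higher and 0 lower in endothelial cells and 2 lower in endocardial cells. The second had 2 higher in macrophages, 0 and 0 in endothelial cells, 3 higher in endocardial cells and 0 lower in smooth muscle. With the fold alone, 2 were higher in endocardial cells in the first, and 2 lower in endothelial cells and 1 higher in smooth muscle in the second.

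With each cell thinned to 1000 UMIs, the first had 3 higher in fibroblasts (Ifi44 ratio 0.911), 1 higher in endothelial cells, 1 lower in endocardial cells and 0 higher in smooth muscle. The second had 3 higher in macrophages (Usp18 ratio 0.820), 1 in endothelial and 1 in endocardial cells, and 1 higher and 0 lower in smooth muscle. Without the cells with many of the genes, the first had a median of 0.16 and 3 higher in fibroblasts, 2 lower in endocardial cells and an endothelial Cxcl10 ratio of 3.01. The second had 3 higher in macrophages (Ifit2 ratio 0.750), 1 in endothelial cells (Cxcl10 ratio 0.506), 2 in endocardial cells and 4 lower in smooth muscle.

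The ratio of shares in fibroblasts in the first comparison was 2.08 with thinning to 1000 UMIs, 1.98 with at least 8 genes and 1.98 without Bst2, Ly6e and Ifi27l2a, and 0.925 with at least 8 genes in the second. In macrophages, thinning to 1000 UMIs gave 1.40 and 1.17. No paired analysis was possible because each group is 1 library.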

Other observations

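Neutrophils numbered 44, 107 and 107 in the order used above. Control held fewer than 50, so the class stayed out of the comparisons and values are given as levels. Isg15 was at 153 CPM (104 to 216), 98.2 CPM (74.2 to 127) and 559 CPM (475 to 655). Rsad2 was at 81.1, 54.3 and 240 CPM, and Ifit1 at 4.77, 26.3 and 108 CPM. These 3 genes were named after their values were seen. The library labelled HFpEF-FoxO1-sh was the highest for 17 of the 32 genes and the lowest for 7, such as Ifih1 (28.6, 21 and 3.59 CPM) and Xaf1 (33.4, 31.6 and 10.8 CPM). How many of all genes were highest or lowest in that library was not counted. The interval of that library for Isg15 lay above those of the other libraries, and 1 cell held 56.7% of its 30 Ifit1 UMIs. Its neutrophils had the lowest depth, with a median of 2351 UMIs per cell against 3248.5 and 4142.

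Monocytes (98, 270 and 78 cells) had Isg15 at 64.0, 41.1 and 90.6 CPM, Rsad2 at 30.5, 33.6 and 59.6 CPM and Irf7 at 82.3, 77.9 and 124 CPM. Lymphatic endothelial cells (280, 261 and 292 cells) had Isg15 at 91.8, 61.5 and 81.2 CPM and Ifit1 at 56.7, 41.6 and 49.0 CPM. In both classes Isg15 was lowest in HFpEF-scr, as it was in macrophages and endocardial cells. In fibroblasts and smooth muscle cells Isg15 was lowest in Control.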
